A study of Mus musculus with 8 samples.

Results

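Small nucleolar RNAs are short noncoding RNAs that guide the maturation of ribosomal RNA in the nucleolus. The array table named 74 such genes by probe sets of 1 gene each (symbols starting with Snord or Snora and digits, plus Rnu3a), out of 22180 genes in all. Of these, 48 were of the box C/D class (47 Snord genes and Rnu3a) and 26 were Snora genes of the box H/ACA class. For a gene with several probe sets, the one with the highest mean was used. Whole kidneys of 8 mice aged 2 months were measured with 1 array per mouse. The wild type group had 2 mice, the Col4a3-/- group (here single mutant) 3 and the Col4a3-/-OPN-/- group (here double mutant) 3, so both mutant groups lack Col4a3 and only the double mutant also lacks osteopontin. The Col4a3 product is a collagen chain of the glomerular filter, and mice without it serve as a model of Alport syndrome. The strain of the mice was not stated.

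Box C/D RNAs assemble with fibrillarin, Nop56, Nop58 and Snu13 and mostly guide ribose methylation, while box H/ACA RNAs assemble with dyskerin (Dkc1), Nhp2, Nop10 and Gar1 and mostly guide the conversion of uridine to pseudouridine. A few members act in cutting the ribosomal RNA precursor instead. Among them are Rnu3a, a copy of the U3 RNA needed for the small ribosomal subunit, Snora73a and Snora73b, which also serve the small subunit, and Snord118, which serves the large one. In mammals most of these RNAs are cut from introns of host genes, many of which encode ribosomal proteins or other parts of the translation machinery.

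All values are log2 expression, and levels are compared between arrays for the same probe set only. Array medians over all probe sets lay between 5.18 and 5.25, and precision is limited by how many arrays there were. Of 7 measured kidney markers, Umod, Slc12a1, Lrp2, Slc34a1 and Slc12a3 of the tubules measured between 10.42 and 12.87 on all arrays, Aqp2 of the collecting duct 7.10 to 9.05 and Nphs1 of the podocytes 5.96 to 7.31. Col4a3 itself measured 8.77 and 8.42 in wild type, 7.65, 7.67 and 6.60 in single mutants and 6.82, 6.13 and 7.60 in double mutants, lower in all 6 mutants. Which part of the gene its probe set reads was not stated, and the osteopontin gene was not analysed here. Sex was read from Xist and 3 Y-linked genes because the labels do not give it. Both wild type mice, single mutant 2 and double mutant 3 were read as male, and the other 4 mutants as female. Each comparison is therefore given from the model of the 3 groups, and again from a model that adds a term for sex. In that model a comparison with wild type, all male, rests mostly on the 1 male of the mutant group. Over all genes the correlation of single mutant 2 was 0.966 with mouse 1 and 0.962 with mouse 3 of its group, and 0.985 with double mutant 3. Single mutants 1 and 3 had a correlation of 0.988.

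Of the 74 members, 70 lay inside another gene in the RefSeq annotation of GRCm38, 19 of them inside a ribosomal protein gene and 13 inside a Snhg gene or Gas5, which are noncoding hosts. Rnu3a, Snord13, Snord89 and Snord118 lay inside no annotated gene. The members were 48 to 221 bases long, with a median of 68.0 in box C/D and 118.5 in box H/ACA. Transcript starts of many host genes carry a tract of pyrimidines (C or T), a mark of genes whose translation follows growth signals. The starts of the hosts of the 5 members with the highest mean signal and of Snora62 are shown from RefSeq (GRCm38.p6). Snora62 lay above wild type in every mutant. They are examples of host genes with and without a run of pyrimidines as searched here. Sequences of the small nucleolar RNAs themselves were not used here. Each line runs from 40 bases before the annotated start to 30 bases into the transcript, and capitals mark a run of at least 8 pyrimidines that touches the stretch from 10 bases before to 20 bases after the start, searched on the transcript strand.
Rps12 (Snora33), chr10:23787180-23787249, minus strand: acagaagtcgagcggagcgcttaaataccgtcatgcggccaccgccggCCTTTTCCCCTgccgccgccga
Snhg12 (Snord99), chr4:132308638-132308707, plus strand: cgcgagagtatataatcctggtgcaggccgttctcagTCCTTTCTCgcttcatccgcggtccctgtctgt
Snhg1 (Snord22), chr19:8723447-8723516, plus strand: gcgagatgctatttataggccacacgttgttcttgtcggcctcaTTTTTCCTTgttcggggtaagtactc
Ncl (Snord82), chr1:86359426-86359495, minus strand: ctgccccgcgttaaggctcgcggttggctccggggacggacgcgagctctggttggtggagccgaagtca
Kansl2 (Snora34), chr15:98534240-98534309, minus strand: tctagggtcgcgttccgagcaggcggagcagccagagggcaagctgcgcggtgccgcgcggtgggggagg
Rpsa (Snora62), chr9:120127726-120127795, plus strand: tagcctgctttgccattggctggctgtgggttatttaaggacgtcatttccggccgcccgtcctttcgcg
Rps12, Snhg12 and Snhg1 held such a run and Ncl, Kansl2 and Rpsa did not. Rpsa has TCCTTTC just past the searched stretch, shorter than 8 bases, so it was not marked. The search depends on these limits and on the annotated start, so it cannot tell which genes lack the tract. The run was found in 12 of 40 host genes in the table (30%) and in 16.7% of all 27025 genes there.

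Most members had a higher signal than in wild type on 4 of the 6 mutant arrays and not on the other two. The median of the 74 members, relative to the wild type mean of each gene, was 0.34 in single mutant 1 and 0.50 in single mutant 2, but -0.12 in single mutant 3. In the double mutants it was -0.06, 0.25 and 0.42 for mice 1, 2 and 3. The wild type arrays lay at 0.03 and -0.03, and the median of all genes lay between -0.02 and 0.00 on every array. High and low arrays thus occurred in both mutant groups. The arrays read as male among the mutants were both high, while the female ones were split within each genotype.

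**Figure D1:**
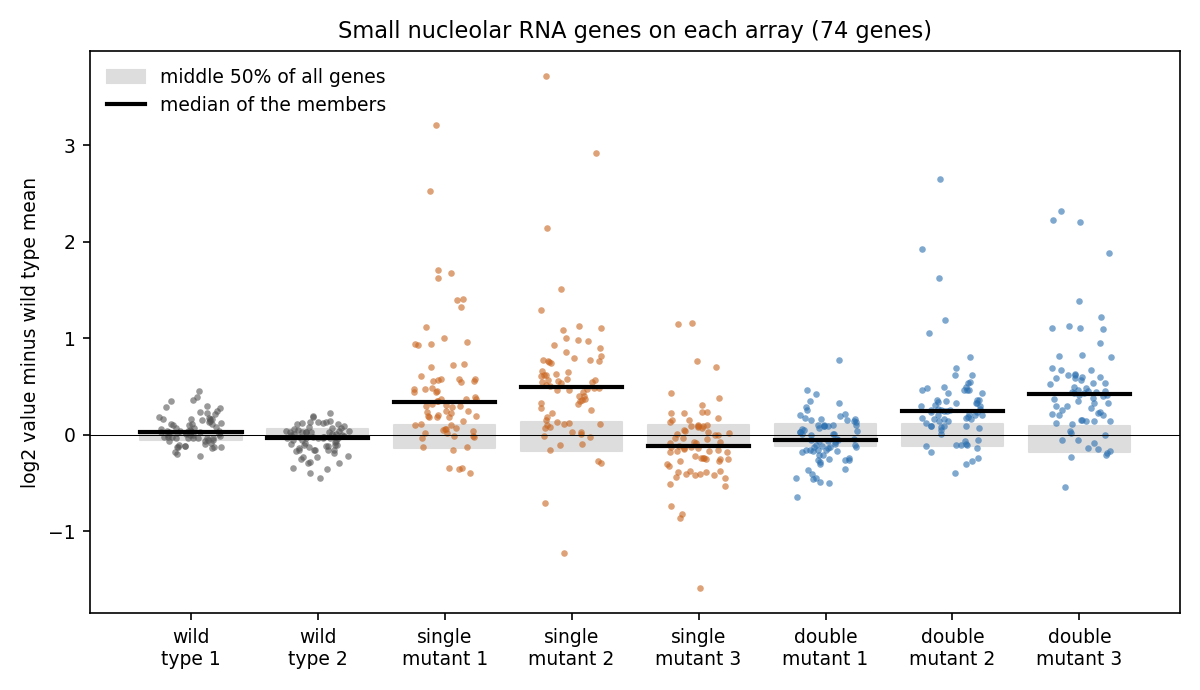
Log2 value of each of the 74 small nucleolar RNA genes minus its wild type mean (points) on the 8 arrays, with the median of the members (black line) and the middle 50% of all 22180 genes (grey). Medians lie at 0.34, 0.50, 0.25 and 0.42 in single mutants 1 and 2 and double mutants 2 and 3, and at -0.12 and -0.06 in single mutant 3 and double mutant 1.

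The same split appeared in the number of members outside the wild type values. In single mutant 1, 53 of 74 members were above both wild type arrays (34.1% of all genes) and 5 were below both (40.4% of all genes). In single mutant 2, 59 members were above both (35.3% of all genes) and 4 below (43.6% of all genes), and in double mutants 2 and 3 there were 54 and 58 above, against 34.5% and 34.2%, and 9 and 7 below, against 39.0% and 42.2%. In single mutant 3 only 17 members were above both wild type arrays (35.3% of all genes) and 39 were below both (37.3% of all genes). In double mutant 1 there were 21 above (33.7% of all genes) and 28 below (40.5% of all genes). Box C/D and box H/ACA members shared the pattern. In single mutant 1 their medians were 0.24 and 0.57, in single mutant 2 both were 0.50, and in single mutant 3 they were -0.15 and -0.06. In double mutants 1, 2 and 3 the box C/D medians were -0.06, 0.24 and 0.41 and the box H/ACA medians 0.03, 0.26 and 0.44. Whether the classes differ was not tested.

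Rnu3a (chromosome 10, 40258468 to 40258679) had the largest SD over the 8 arrays of all members. It measured 6.43 and 6.11 in wild type, 9.48, 9.99 and 7.41 in single mutants 1 to 3, and 6.30, 8.92 and 8.50 in double mutants 1 to 3. Every single mutant exceeded both wild type mice, whereas double mutant 1 lay between them. The group means were 6.27 ± 0.22 (SD, n = 2), 8.96 ± 1.36 (SD, n = 3) and 7.91 ± 1.41 (SD, n = 3). In limma the single mutant exceeded wild type by 2.69 (SE 0.99, adjusted p = 0.286), a 6.45-fold difference that did not pass. The value for the double mutant was 1.64 (SE 0.99, adjusted p = 0.529). Adding the sex term gave 3.50 (adjusted p = 0.114) and 2.44 (adjusted p = 0.244). When only genes above the 75th percentile of signal were tested with the sex term, the single mutant difference passed with an adjusted p of 0.0324. Rnu3a is in that set only through its high arrays, since both wild type arrays and double mutant 1 lie under the percentile of 6.64.

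The 4 probe sets that name the U3 genes Rnu3b1 to Rnu3b4 together, and are therefore no members, gave the same order of mice within each genotype. The first of them measured 10.06 and 9.66 in wild type, 12.19, 12.29 and 10.56 in single mutants and 9.76, 11.64 and 11.58 in double mutants. The other three gave nearly the same values. The U3 copies are nearly identical in sequence, so it is uncertain how far these signals and that of Rnu3a are separate.

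Snora75 and Snora62, box H/ACA RNAs inside the nucleolin gene Ncl and the ribosomal protein gene Rpsa, followed Rnu3a in their spread. Snora75 (chromosome 1, 86351170 to 86351285) measured 7.38 and 7.06 in wild type. It measured 9.75, 10.14 and 7.60 in single mutants and 7.65, 9.15 and 9.54 in double mutants. All 6 mutants were above both wild type mice, but single mutant 3 and double mutant 1 were close to them. Its differences from wild type were 1.94 (SE 0.86, adjusted p = 0.358) in the single and 1.56 (SE 0.86, adjusted p = 0.480) in the double mutant. Snora62 (chromosome 9, 120130434 to 120130563) measured 8.82 and 8.87 in wild type, 10.48, 10.99 and 10.01 in single mutants and 9.20, 10.48 and 10.73 in double mutants. No mutant overlapped wild type. The single mutant mean was 10.49 ± 0.49 (SD, n = 3) against 8.85 ± 0.03 (SD, n = 2), a difference of 1.64 (SE 0.49, adjusted p = 0.213). The double mutant differed by 1.29 (SE 0.49, adjusted p = 0.303). In the model with sex Snora62 rose in the single mutant by 2.19 (SE 0.44, adjusted p = 0.0462), and the double mutant value of 1.83 did not pass (adjusted p = 0.0669).

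**Figure D2:**
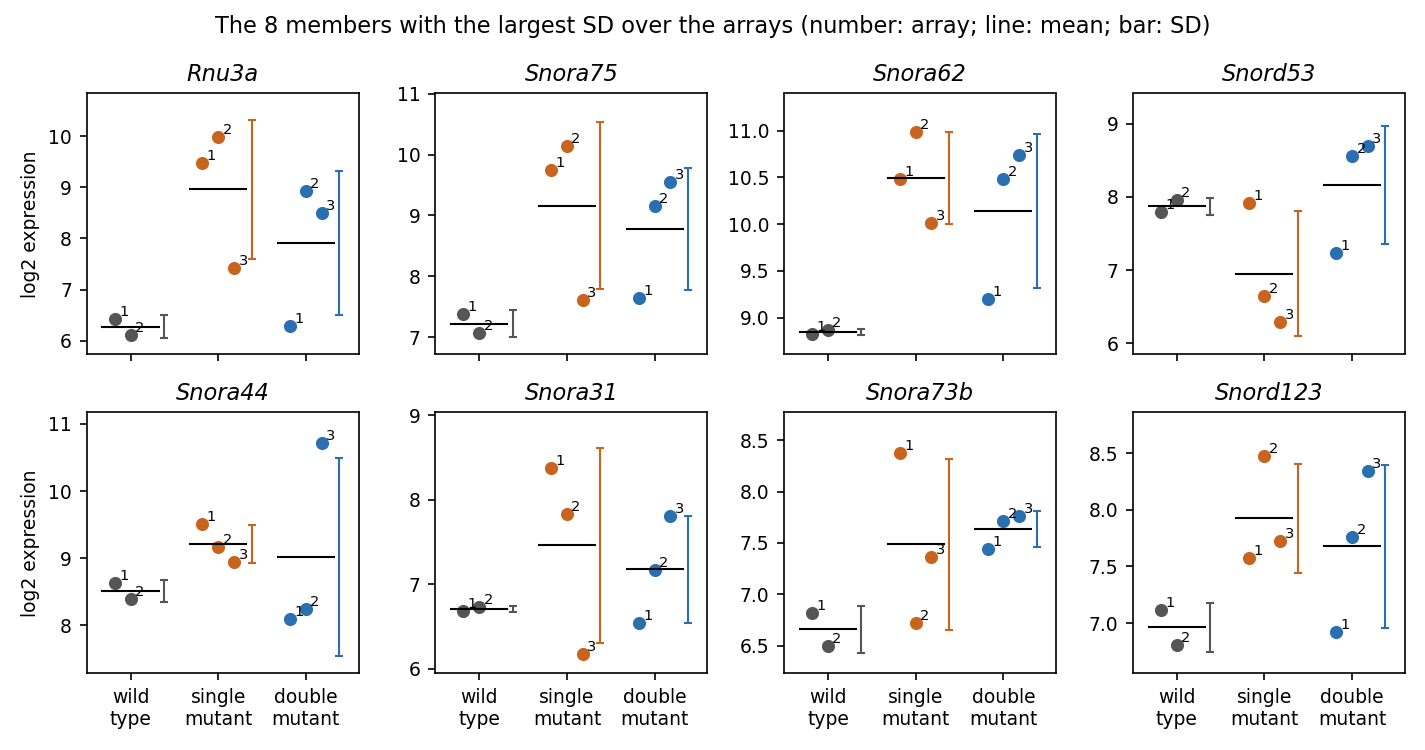
Log2 expression of the 8 small nucleolar RNA genes with the largest SD over the arrays, by genotype (points are mice with their number, the line is the mean and the bar the SD). Rnu3a ranges from 6.11 to 9.99, and single mutant 3 and double mutant 1 lie nearest wild type in Rnu3a and Snora75, whereas Snord53 is lowest in single mutants 2 and 3.

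Other members with a large SD, chosen after their values were seen, were less uniform. Snora44, inside the noncoding host Snhg12, measured 8.63 and 8.39 in wild type and 9.51, 9.17 and 8.95 in single mutants. In double mutants it measured 8.10, 8.24 and 10.71, so that its high value there rests on mouse 3. Snora31, inside Tpt1, measured 6.68 and 6.73 in wild type, 8.38, 7.83 and 6.17 in single mutants and 6.54, 7.17 and 7.81 in double mutants. Snord53, inside Wdr43, went the other way in part of the mice. It measured 7.79 and 7.96 in wild type, 7.92, 6.65 and 6.29 in single mutants and 7.23, 8.56 and 8.69 in double mutants. Single mutants 2 and 3 were below every other array.

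The first comparison, single mutant against wild type, describes small nucleolar RNAs in the Alport kidney. No member passed the test, although 56 of 74 lay above wild type against 46.5% of all genes, by a median of 0.28 against -0.01 over all genes. In limma 0 members were higher and 0 lower, where 0.00902% of all 22180 genes were called higher and 0.0225% lower. At an unadjusted p under 0.05, 7 members were higher and 2 lower, against 6.32% and 8.75% of all genes. Among genes above the 75th percentile of signal, 7 of 59 members and 821 of 7145 genes were higher. The members with the smallest p were Snord37 at -0.35 (SE 0.09, adjusted p = 0.175), Snord89 at 0.40, Snord22 at 0.51, Snora62 at 1.64 and Snord104 at 0.68. Snord37, inside the elongation factor gene Eef2, measured 5.29 and 5.31 in wild type and 4.95, 5.01 and 4.88 in single mutants, a low signal without overlap. Snord22, a box C/D RNA inside Snhg1, measured 11.20 and 11.25 in wild type and 11.78, 11.97 and 11.45 in single mutants. Its mean of 11.73 ± 0.26 (SD, n = 3) exceeded that of wild type, 11.22 ± 0.04 (SD, n = 2), again without overlap. In all 16 members were higher in every single mutant than in both wild type mice, against 15.5% of all genes, and 2 were lower, against 19.2%. The median of 0.28 fell to 0.11 without single mutant 2, rose to 0.42 without single mutant 3 and was 0.44 after quantile normalization.

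With the sex term 5 members were higher and 0 lower in the single mutant, against 2.05% and 4.86% of all genes. As wild type was all male, these differences rest mostly on the 1 male of the group, single mutant 2. Snora33, for one, lay 0.51 above its wild type mean in that mouse alone. At an unadjusted p under 0.05 there were 29 higher and 1 lower, against 9.96% and 14.8%. Shares over all genes include many of low signal. Of 7145 genes above the 75th percentile, 267 were called higher and 1087 were higher at an unadjusted p under 0.05. Of 59 members there, Rnu3a among them, the counts were 5 and 28. The 5 called included Snora33, inside the ribosomal protein gene Rps12, at 0.51 (SE 0.08, adjusted p = 0.0287), and Snord55 at 0.70 (adjusted p = 0.0386). The others called were Snord123, inside the noncoding Snhg18, at 1.57 (adjusted p = 0.0411), Snord110, inside Nop56, at 0.68 (adjusted p = 0.0446), and Snora62. Snora33 measured 12.43 and 12.36 in wild type and 12.70, 12.90 and 12.54 in single mutants, a small difference on a high signal with no overlap. A second probe set of Snora33 differed more, with 6.07 and 5.90 in wild type and 7.15, 7.87 and 6.02 in single mutants, and there single mutant 3 lay between the wild type mice. Snord123 measured 7.12 and 6.81 in wild type and 7.58, 8.47 and 7.73 in single mutants. Snord55 measured 11.17 and 10.94 in wild type and 11.17, 11.83 and 11.13 in single mutants, so that mouse 2, the male, stood apart while mouse 1 was level with the higher wild type mouse and mouse 3 lay between them. The median of the members was 0.51 and 63 of 74 were above wild type, against 45.8% of all genes. In this model no member passed without wild type 1, without wild type 2, without single mutant 2 or without double mutant 1, and 3 passed without single mutant 1 or without double mutant 2. In the same model 17 members passed among genes whose mean over all arrays was above the 75th percentile, against 7.31% of those genes. That count includes Rnu3a, which entered the set only through its high arrays. After cyclic loess normalization 17 passed, against 3.59% of all genes. How far that normalization moved genes of high signal in general, as most members are, was not tested.

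The double mutant against wild type gave a like pattern with smaller differences, and both comparisons share the 2 wild type arrays. In limma 0 members were higher and 0 lower, where 0.0135% of all genes were called higher and 0.0316% lower. At an unadjusted p under 0.05, 2 members were higher and 1 lower, against 6.43% and 7.90% of all genes. Their median was 0.20, against -0.01 over all genes, and 61 of 74 were above wild type, against 45.5% of all genes. Snord37 was again the member with the smallest p, at -0.39 (SE 0.09, adjusted p = 0.150), with 5.05, 4.91 and 4.76 in double mutants. It was followed by Snora62, by Snord22 at 0.39, by Snora73b at 0.98 (SE 0.44, adjusted p = 0.380) and by Snord35b at 0.47. Snora73b, of the RNAs that serve the cutting of the precursor, measured 6.82 and 6.50 in wild type and 7.44, 7.71 and 7.76 in double mutants, without overlap. Of the members, 20 were higher in every double mutant than in both wild type mice, against 15% of all genes, and 2 were lower, against 19.1%. The median was 0.10 without double mutant 3, 0.31 without double mutant 1 and 0.30 after quantile normalization.

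For the double mutant the sex term gave 3 members higher and 0 lower, against 2.08% and 4.17% of all genes. These differences rest mostly on the 1 male of the group, double mutant 3. Snora33 lay 0.43 above its wild type mean in that mouse alone. At an unadjusted p under 0.05 there were 20 higher and 1 lower, against 9.77% and 14.5%, and 66 of 74 lay above wild type, against 44.8%. Of 7145 genes above the 75th percentile, 237 were called higher and 1002 were higher at an unadjusted p under 0.05. Of 59 members there, the counts were 3 and 20. The 3 called were Snora33 at 0.43 (SE 0.08, adjusted p = 0.0397), Snord55 at 0.68 (adjusted p = 0.0422) and Snord35a at 1.04 (SE 0.21, adjusted p = 0.0487). Snord35a is a box C/D RNA inside Rpl13a, a gene whose small nucleolar RNAs are known from work on lipid-induced cell stress. It measured 9.58 and 9.65 in wild type, 9.60, 10.70 and 9.43 in single mutants and 9.82, 10.05 and 10.42 in double mutants. All double mutants lay above wild type, and among single mutants only mouse 2 did. Leaving out single mice removed most of these calls: 0 members passed without wild type 1, wild type 2, single mutant 3, double mutant 1 or double mutant 2, and 1 passed without single mutant 2 or double mutant 3. Each such fit also had fewer degrees of freedom, so dependence on particular mice was not tested. In the sex model with all mice, 8 members passed among genes above the 75th percentile, against 6.40% of them. That filter uses the mean over the arrays compared. After cyclic loess normalization 13 passed, against 3.27% of all genes, again without a share at like signal.

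**Figure D3:**
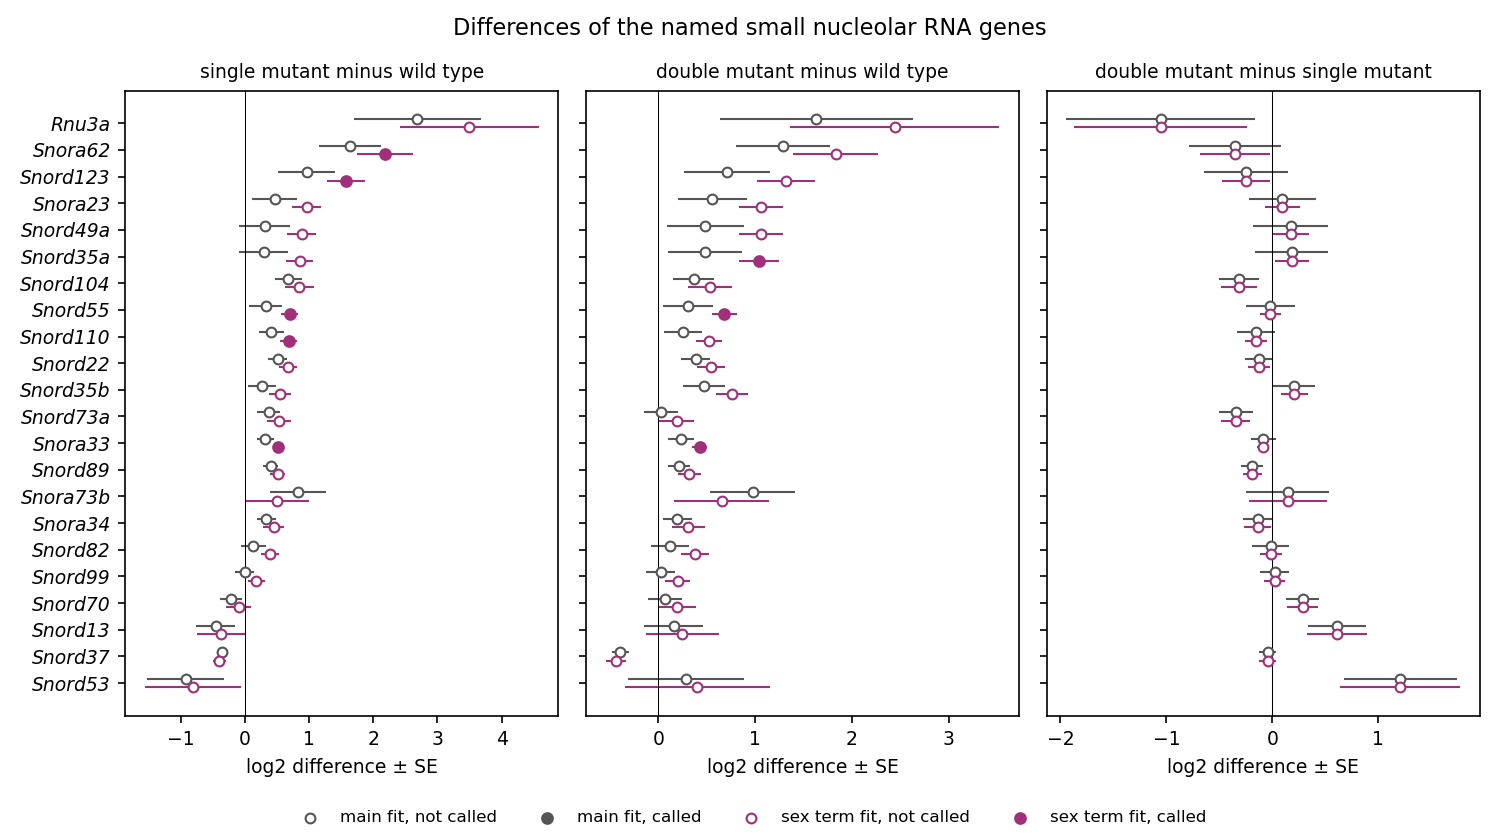
Log2 differences with their SE for the named small nucleolar RNA genes in the 3 comparisons, from the model of the 3 groups (grey) and from the model with a sex term (purple); filled points passed the adjusted threshold of 0.05. The filled points are 5 genes in the single mutant and 3 in the double mutant, each in the model with the sex term.

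The last genotype comparison set the double against the single mutant, which differ by osteopontin. No member separated the groups. In limma 0 members were higher and 0 lower, as were 0% of all genes in each direction. At an unadjusted p under 0.05 there were 0 members in either direction, against 1.60% of all genes in each, and with the sex term 0 higher and 1 lower (Snord73a), against 2.59% and 2.45%. The median difference was -0.07, against 0.00 over all genes, with 25 of 74 members above 0, against 50.7% of all genes. It moved from -0.26 without single mutant 3 to 0.08 without double mutant 1, so that its sign depended on single mice. The members with the smallest p were Snord53 at 1.21 (SE 0.54), Snord13 at 0.61 (SE 0.27), Snord73a at -0.34 (SE 0.16), Snord70 at 0.29 (SE 0.15) and Snord89 at -0.19 (SE 0.10), each with an adjusted p of 1.0. Snord13, which helps the acetylation of small subunit RNA, measured 9.18 and 8.68 in wild type, 8.53, 8.22 and 8.69 in single mutants and 8.56, 9.18 and 9.53 in double mutants. Rnu3a differed by -1.05 (SE 0.89), so that its SE was nearly as large as the difference. No member had groups that did not overlap in either direction, against 3.32% of all genes higher and 3.90% lower.

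The sex coefficient compares females with males and is estimated within the mutants. The coefficient was above 0 for 7 of 74 members, against 52.0% of all genes, with a median of -0.28 against 0.01, while female single mutant 1 and double mutant 2 were among the high arrays. In limma 0 members were called in either direction, where 1.16% of all genes were called higher and 0.334% lower. At an unadjusted p under 0.05, 22 members were lower, against 6.80% of all genes, and 0 were higher, against 11.6%. Snord55 at -0.56 (SE 0.10, adjusted p = 0.0616) and Snord35a at -0.84 (SE 0.17, adjusted p = 0.0754) had the smallest p. With genes above the 75th percentile alone, 8 members were lower, against 1.97% of those genes, and after cyclic loess 2, against 0.532% of all genes. Each mutant group held only 1 male, so a difference of sex and of these 2 mice cannot be told apart.

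Members of 1 host gene moved alike in some hosts and not in others, and the size of their changes differed. There were 11 host genes with more than 1 member, and 25 members lay in them. Inside Ncl, Snora75 ranged from 7.06 to 10.14, while Snord82 measured 11.34 and 11.32 in wild type, 11.53, 11.70 and 11.16 in single mutants and 11.22, 11.40 and 11.72 in double mutants. Ncl itself, a nucleolar protein that binds ribosomal RNA precursors, measured 8.61 on both wild type arrays, 9.08, 9.20 and 8.82 in single mutants and 8.87, 8.91 and 9.18 in double mutants. Snora75, Snord82 and Ncl thus gave the same order of mice within each mutant group, with changes of unlike size. Inside Snhg12, Snord99 stayed between 12.03 and 12.55, Snora44 spanned 8.10 to 10.71 and the host 5.13 to 5.70. Inside Wdr43, Snord53 lay below wild type in single mutants 2 and 3, while its neighbour Snord92 measured 5.61 and 5.56 in wild type, 6.52, 6.13 and 5.69 in single mutants and 5.67, 5.94 and 5.73 in double mutants. Inside 2410006H16Rik, by contrast, Snord49a, Snord49b and Snord65 were all highest in single mutant 2, with 10.39, 11.53 and 8.73, and next highest in double mutant 3, with 10.36, 11.10 and 8.34.

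For 55 members the single gene that contains them was measured by its own probe set, which gave 41 host genes. The strand of the members is not in the annotation used here, so a host was taken from position alone. In the median, host genes lay below the members they contain on the arrays where members were high, and above them in single mutant 3 and double mutant 1. The host medians were 0.14, 0.24 and 0.03 in single mutants 1 to 3 and 0.11, 0.13 and 0.17 in double mutants 1 to 3. The medians of the 55 members were 0.37, 0.47 and -0.11, and -0.06, 0.21 and 0.38. A member lay further above wild type than its host in 37 and 38 of 55 pairs in single mutants 1 and 2 and in 30 and 33 pairs in double mutants 2 and 3. In single mutant 3 and double mutant 1 this held for 20 and 13 pairs. Some host probe sets had a low signal, where a change is hard to see. Means of Rpl17, Rpl37, Rpl39 and Htr2c were 4.70, 5.09, 5.25 and 4.47, against a median of 5.61 over all genes. The bearing of such hosts on these counts was not tested. Rpsa, the host of Snora62, stayed between 9.75 and 10.18 on all arrays. Rps12, the host of Snora33, measured 9.99 and 9.89 in wild type, 10.49, 10.89 and 10.29 in single mutants and 10.15, 10.38 and 10.63 in double mutants. Per the labels the RNA was labelled with a FlashTag kit, which is made for small RNAs, while the probe sets are those of whole genes. Whether a probe set reads the mature RNA alone or also the intron around it, and how this labelling bears on host mRNA values, was not tested.

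**Figure D4:**
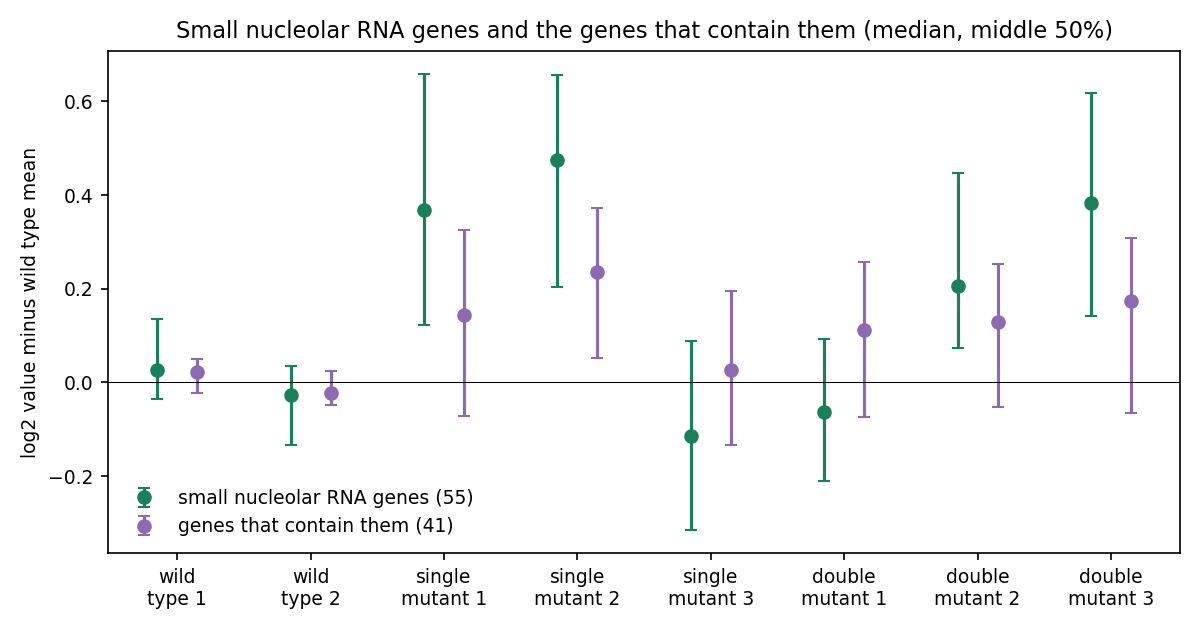
Median and middle 50% of the log2 value minus the wild type mean on each array, for 55 small nucleolar RNA genes (green) and the 41 genes that contain them (violet). Members reach 0.37, 0.47, 0.21 and 0.38 in single mutants 1 and 2 and double mutants 2 and 3, where hosts reach 0.14, 0.24, 0.13 and 0.17. In single mutant 3 and double mutant 1 members lie at -0.11 and -0.06 and hosts at 0.03 and 0.11.

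Genes of the proteins that bind, build and use small nucleolar RNAs did not share one direction. Among the box C/D core proteins, 3 of 5 listed names were measured and none was called in any comparison. Nop56 had the widest spread, with 7.05 and 6.75 in wild type, 8.32, 8.93 and 7.19 in single mutants and 7.13, 7.97 and 9.24 in double mutants, and its gene holds Snord110. Snu13 measured between 8.4 and 8.8 on all arrays. The 4 box H/ACA core genes had a median of -0.23 in the single and -0.01 in the double mutant against wild type, with 0 called. Of 28 measured U3 processome genes, which act with U3 on the ribosomal RNA precursor, 7 were above wild type in each mutant, with medians of -0.16 and -0.10 and 0 called. Under the sex term 6 of the 28 were lower in the single and 4 in the double mutant, against 4.86% and 4.17% of all genes. Imp4, a U3 protein, was lower by -1.04 (SE 0.12, adjusted p = 0.0222) in the single and -0.90 in the double mutant, and Imp3 by -0.93 and -0.89. In that model Ncl was higher by 0.60 and 0.56, the 1 gene called among 15 of RNA polymerase I and the nucleolus.

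The other groups were flat or followed the members in part. The 12 assembly factors had medians of -0.12 and -0.13 in the single and double mutant against wild type, the 18 genes of small nucleolar RNA decay and processing -0.10 and -0.04, the 15 genes of RNA polymerase I and the nucleolus 0.03 and 0.04, and the 19 noncoding host genes 0.05 and 0.08, with 0 called in each. Under that term the noncoding host Snhg5 was higher by 0.74 and 0.86. Of 13 other small nuclear and cytoplasmic RNAs, 12 were above wild type in each mutant, with medians of 0.32 and 0.19. In the sex model Scarna17 was higher by 1.08 and 0.88, Rnu11, a part of the minor spliceosome, by 1.31 and 1.19, and Rpph1, the RNA of ribonuclease P, by 0.47 in the single mutant. The 472 genes of microRNA precursors had medians of 0.01 and -0.00, with 0 called, and the 26 of them above the 75th percentile 0.04 and 0.10. In the sex model 10 of the 472 were higher and 1 lower in the single mutant, against 2.05% and 4.86% of all genes. The double mutant had 5 higher and 2 lower, against 2.08% and 4.17%. Over all 472, most of them of low signal, the calls were thus near or below the share of all genes. Of the 26 above the 75th percentile, 2 were called higher in the single and 1 in the double mutant. Among all 7145 genes above it there were 267 and 237. At an unadjusted p under 0.05, 8 and 4 of the 26 were higher, so at like signal the precursors were not flat. The medians of the 26 in that model were 0.21 and 0.23.

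Markers of dividing cells had higher medians on the arrays where members were high. The median of 4 measured markers (Mki67, Top2a, Cdk1 and Ccna2, of 5 listed) was 5.07 on both wild type arrays, 5.70, 6.35 and 5.18 in single mutants and 5.45, 6.22 and 6.15 in double mutants. Single mutant 3 and double mutant 1 were the lowest mutants there too. The kidney markers (7 of 8) had their lowest medians on the arrays with the highest member medians. Their array medians were 10.73 in single mutant 2 and 10.61 in double mutant 3, against 11.47 and 11.18 in wild type, 11.66 and 11.61 in the other single mutants and 11.52 and 11.42 in the other double mutants. With sex in the model Slc12a1, a salt transporter of the tubule, was the 1 of 7 called, lower by -0.44 in the single and -0.67 in the double mutant. It measured 11.09 and 11.18 in wild type, 11.66, 10.73 and 11.54 in single mutants and 11.41, 11.42 and 10.42 in double mutants. Only the male mutants lay below wild type, and the female ones lay above it. Macrophage markers (8 of 8 measured) had medians of 6.35 and 6.58 in wild type, 7.40, 8.69 and 7.54 in single mutants and 8.12, 8.41 and 8.10 in double mutants, where double mutant 1 did not stand below its group. Fibroblast markers (6 of 6) had medians of 7.26 and 7.17, then 7.98, 10.02 and 8.43, then 8.71, 9.60 and 9.02. Lymphocyte markers (7 of 8) had array medians between 5.03 and 5.73. The T cell genes Cd3e, Cd3g and Cd4 were highest in double mutant 1, at 7.32, 7.04 and 6.37. The T cell gene Cd8a was not, with 5.30 there and its highest value, 5.42, in double mutant 2. Markers of adrenal gland, liver, muscle and fat (9 of 11 listed, with none of blood measured) had array medians between 5.18 and 5.67, and among them Alb ranged from 4.88 in single mutant 2 to 8.04 in single mutant 3. The part of these cells in the members' values was not tested, and in whole kidneys more cells of a type and more RNA per cell cannot be told apart.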

How the data were processed

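Each array has 1 deposited log2 value for each probe set. How the authors normalized them was not stated, and the log2 unit was read from the range of the values (4.20 to 13.43). Of 33793 probe sets, 23521 named 1 gene by the platform annotation, 1814 several and 8458 none. The 43 probe sets that name a member together with other genes were left out. The test was limma (version 3.58.1, R version 4.3.3; lmFit, then eBayes) over all 22180 genes with a mean for each of the 3 groups. It left 5 degrees of freedom, or 4 with the sex term. Its two-sided p was adjusted by Benjamini-Hochberg over all genes and called under 0.05. No filter on low values was set, so that each member was tested. Of the members 59 lay above the 75th percentile of signal (6.64). Named members are Rnu3a, those with the highest mean, and in each comparison those called or with the smallest p; others were named after their values were seen. Members, lists and the sex term were chosen with earlier results of these data known. The alternatives were a filter at the 75th or 50th percentile, quantile, median and cyclic loess normalization, an intensity trend, array weights, only the groups compared, males alone, other choices of probe set, the replicate number as a block, and leaving out each array. The fit was tested on simulated data. Positions are from RefSeq, GRCm38, matched for 74 of 74 members by gene ID. Python 3.11.15 and matplotlib 3.10.9 made the plots.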

Additional observations from a re-analysis of the deposited data

How the results depend on the processing

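Without the sex term, 0 members were called in each of the 3 genotype comparisons under every alternative run, including each left-out array, where the range was 0 to 0. With the sex term 5 members were called in the single and 3 in the double mutant against wild type, and leaving out each array in turn, with or without that term, gave 0 to 7 and 0 to 4. Added after seeing the data, always with the sex term, the 75th percentile filter gave 17 and 8 (7.31% and 6.40% of genes tested there were higher), cyclic loess 17 and 13 (3.59% and 3.27%), and the replicate block 3 and 2 (1.60% and 1.71%). The filter uses the mean over the arrays compared, so members such as Rnu3a can enter it through their high arrays alone. The double against the single mutant gave 0 throughout. For females against males, 0 members were called, 8 with the filter (1.97% of genes tested there were lower), 2 after cyclic loess (0.532%) and 0 to 1 without each array. Snord99 against wild type in the single mutant was 0.00 in the model of the 3 groups and 0.18 with the sex term. It was 0.60 after cyclic loess with the sex term. Among named members, 73 values passed under an alternative, with the same sign, and not in the model of the 3 groups. Another 1 passed with the opposite sign, and 2007 passed in neither, whatever their sign. The deviations of same-numbered arrays from their group means had correlations from -0.50 to 0.16. With 2 or 3 arrays per group these deviations are tied to each other, so what the replicate number stands for cannot be told from them. With the replicate number as a block 0 members were called in each comparison. All genes called against wild type then went from 7 to 0 in the single and from 10 to 0 in the double mutant. The cause of these changes was not tested, and 2 wild type arrays limit every comparison with them.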
